A study of Mus musculus with 8 samples.

Results

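IL-15 and the receptor chains that signal with the common gamma chain were followed through steady-state maturation of mouse spleen XCR1+ dendritic cells. The set comprised 8 genes chosen by symbol: the cytokine gene Il15 and the receptor genes Il15ra, Il2ra, Il2rb, Il2rg, Il7r, Il21r and Il4ra. An array row was used where the platform annotation gave it exactly 1 symbol, and a gene with several such rows was represented by the row with the highest mean over the 8 arrays. By this rule 7 of the 8 genes were measured, each by 1 row, out of 19938 genes in all, and Il2rg was not analysed here.

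The cells were sorted from the spleen of untreated reporter mice in which EYFP marks transcription of Il12b, the gene of the shared IL-12 and IL-23 subunit. All samples passed a gate of lineage-negative, Bst2-negative or Bst2-low, CD11c-high, CD8α+ cells, and XCR1 itself is not part of the gate given in the labels. Immature cells (CCR7- and EYFP-, n = 3) were set against 2 homeostatically matured fractions, CCR7+ cells without EYFP (called CCR7+Il12b-, n = 3) and CCR7+ cells with EYFP (called CCR7+Il12b+, n = 2). The study asked which resting XCR1+ dendritic cells mature without an applied stimulus and how far their expression programme changes. Every group carried the reporter, no group received a treatment, and neither the age of the mice nor the number pooled per sample is given in the labels. Levels are log2 values of normalised hybridisation signal, so a difference of 1 is a factor of 2, and levels of different genes were not compared because each row has its own probes.

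The common gamma chain, encoded by Il2rg, is the signalling subunit shared by the receptors for IL-2, IL-4, IL-7, IL-9, IL-15 and IL-21, and each receptor adds its own chain. IL-15 is unusual in that the cell that makes it also displays it: IL-15 bound to the IL-15 receptor alpha chain on a dendritic cell is presented to the beta and gamma chains of neighbouring NK cells and CD8+ T cells. Receptor engagement activates the kinases JAK1 and JAK3 and, depending on the receptor, STAT5, STAT6 or STAT3.

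The sort was visible in the genes that defined it. The mean log2 level of Ccr7 was 8.64 in immature cells, 12.22 in the CCR7+Il12b- fraction and 12.61 in the CCR7+Il12b+ fraction. That of Il12b was 7.03, 10.81 and 12.28. Il12b RNA was thus already far above its immature level in the CCR7+Il12b- fraction, whose name refers to EYFP. Of 6 listed mature dendritic cell markers, Ccr7 among them, 4 were called higher and 0 lower in CCR7+Il12b- against immature cells. In CCR7+Il12b+ cells 5 were called higher and 1 lower, and Cd86 had mean levels of 9.83, 9.54 and 8.87. Among the 5, Cd80 had a dimmer row that differed by 0.33 and was not called (limma over all rows, adjusted p = 0.167). All 14 listed XCR1+ dendritic cell markers lay above the background mark in every group, but most fell as the members rose. Against immature cells 8 of 14 were called lower and 1 higher in the CCR7+Il12b- fraction, with a median log2 difference of -0.43. In the CCR7+Il12b+ fraction 11 were called lower and 1 higher, with a median of -1.32. Of all 19938 genes, 2892 and 3567 were called lower in these comparisons, and 1814 and 2816 higher. The mean level of Xcr1 was 10.90, 9.54 and 7.88 in the 3 groups, that of Naaa 11.76, 9.84 and 6.94 and that of Tlr3 10.13, 7.90 and 5.31. The part of this fall in the results was not tested. The background mark, a log2 level of 4.98, was set so that 95% of the mean levels of 1194 olfactory and vomeronasal receptor genes lay under it. On the first principal component of all genes, which held 77.1% of the variance, the CCR7+Il12b- arrays lay at 8.20, 13.4 and 30.1 and the CCR7+Il12b+ arrays at 52.2 and 53.6, so CCR7+Il12b- replicate 3 lay nearer to the CCR7+Il12b+ arrays than its group did. RNA was bulk, so fewer cells of a type and less RNA per cell cannot be told apart.

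Il15 and its presenting receptor chain Il15ra were higher in both matured fractions than in immature cells, and higher in CCR7+Il12b+ than in CCR7+Il12b- cells. Among the measured members these were the pair called at each of the 3 comparisons under every alternative processing that was tried. The threshold for a call was an adjusted p below 0.05, from limma with Benjamini-Hochberg adjustment over 19938 genes.

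The log2 level of Il15 was 8.23, 7.70 and 8.01 in the immature arrays, 9.60, 9.30 and 9.28 in the CCR7+Il12b- arrays, and 10.94 and 10.38 in the CCR7+Il12b+ arrays. The groups stood in steps with no array of one group inside the range of another. Against immature cells the difference was 1.41 ± 0.18 (SE) in CCR7+Il12b- cells, a 2.66-fold rise (limma, adjusted p = 0.000197). In CCR7+Il12b+ cells it was 2.68 ± 0.20, a 6.41-fold rise (limma, adjusted p = 1.79e-06). Set directly against CCR7+Il12b- cells, CCR7+Il12b+ cells were higher by 1.27 ± 0.20, or 2.41-fold (limma, adjusted p = 0.00301). That difference ranked 40 by size among all higher values of this comparison.

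Il15ra encodes the high-affinity chain that captures IL-15 and carries it to the cell surface. Its log2 level was 6.32, 6.49 and 6.47 in immature arrays, 9.33, 9.47 and 9.78 in CCR7+Il12b- arrays, and 11.02 and 10.72 in CCR7+Il12b+ arrays. Again no groups overlapped, and the steps were larger than the spread within any group. The rise over immature cells was 3.10 ± 0.14 (SE), or 8.57-fold, in CCR7+Il12b- cells (limma, adjusted p = 8.99e-08) and 4.45 ± 0.15, or 21.8-fold, in CCR7+Il12b+ cells (limma, adjusted p = 1.8e-08). The step between the matured fractions was 1.35 ± 0.15, or 2.54-fold (limma, adjusted p = 0.000655). By size the 3 differences ranked 40, 21 and 31 among the higher values of their comparisons. The comparisons share arrays: both against immature cells use the same 3 immature arrays, and the comparison between fractions uses the matured arrays again.

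**Figure D1:**
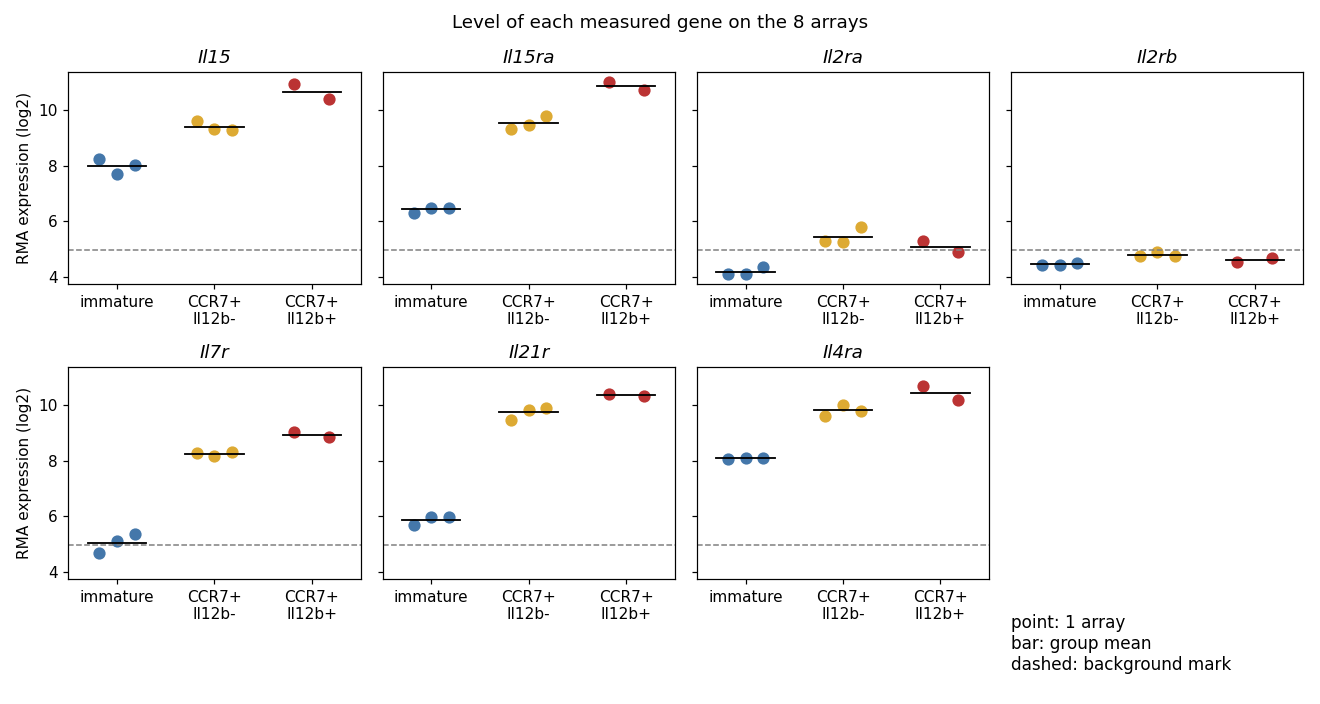
Log2 level of the 7 measured members on each array, with points for arrays, bars for group means and the background mark of 4.98 as a dashed line. Il15, Il15ra, Il7r, Il21r and Il4ra each stand in 3 separate steps, with a smaller step between the matured fractions for Il7r, Il21r and Il4ra. The group mean of Il2ra is above the mark only in the matured fractions, and the group means of Il2rb stay below it.

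Il7r and Il21r, which encode the ligand-specific chains of the IL-7 and IL-21 receptors, were low in immature cells and rose several-fold in both matured fractions. IL-7 is the survival cytokine of lymphocytes, and its receptor chain is also used for TSLP, which is sensed by dendritic cells. The log2 level of Il7r was 4.68, 5.11 and 5.35 in immature arrays, 8.27, 8.19 and 8.30 in CCR7+Il12b- arrays and 9.02 and 8.86 in CCR7+Il12b+ arrays. The immature mean of 5.05 lay close to the background mark and replicate 1 lay below it, while all 5 matured arrays were far above it. The difference from immature cells was 3.20 ± 0.15 (SE), or 9.22-fold, in CCR7+Il12b- cells (limma, adjusted p = 1.67e-07) and 3.89 ± 0.17, or 14.8-fold, in CCR7+Il12b+ cells (limma, adjusted p = 5.54e-08).

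The log2 level of Il21r was 5.69, 5.98 and 5.98 in immature arrays, 9.46, 9.84 and 9.90 in CCR7+Il12b- arrays and 10.38 and 10.33 in CCR7+Il12b+ arrays. No array of one group reached the range of another. The rise was 3.85 ± 0.14 (SE), or 14.4-fold, in CCR7+Il12b- cells (limma, adjusted p = 2.64e-08) and 4.47 ± 0.15, or 22.2-fold, in CCR7+Il12b+ cells (limma, adjusted p = 1.8e-08). By size this was rank 15 and rank 19 among the higher values of these comparisons.

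Il4ra, the chain that binds IL-4 and, with Il13ra1, IL-13, started from a clear level in immature cells. Its log2 level was 8.08, 8.11 and 8.08 in immature arrays, 9.62, 9.996 and 9.80 in CCR7+Il12b- arrays and 10.68 and 10.19 in CCR7+Il12b+ arrays. The immature arrays were nearly identical, and every matured array lay above them. The rise was 1.71 ± 0.14 (SE), or 3.28-fold, in CCR7+Il12b- cells (limma, adjusted p = 1.08e-05) and 2.34 ± 0.16, or 5.07-fold, in CCR7+Il12b+ cells (limma, adjusted p = 1.04e-06).

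Between the matured fractions Il7r, Il21r and Il4ra were called higher in CCR7+Il12b+ cells, by smaller steps than those of Il15 and Il15ra and with calls that depended on single arrays and on the processing. The step was 0.68 ± 0.17 (SE), or 1.61-fold, for Il7r (limma, adjusted p = 0.038). For Il21r it was 0.62 ± 0.15, or 1.54-fold (limma, adjusted p = 0.0345), and for Il4ra 0.63 ± 0.16, or 1.55-fold (limma, adjusted p = 0.0373). All 3 kept their direction when any 1 array was left out, but each call was lost without certain arrays. For Il7r these were immature replicate 2, each of the 3 CCR7+Il12b- arrays and each of the 2 CCR7+Il12b+ arrays, with adjusted p from 0.00996 to 0.19 over all 8 omissions (limma). For Il21r they were immature replicates 2 and 3, CCR7+Il12b- replicates 1 and 2 and both CCR7+Il12b+ arrays, with adjusted p from 0.0222 to 0.151 (limma). For Il4ra they were immature replicates 2 and 3, CCR7+Il12b- replicates 1 and 3 and CCR7+Il12b+ replicate 1, with adjusted p from 0.0174 to 0.232 (limma). With all arrays kept, array weights ended the calls of Il7r, Il21r and Il4ra (limma, adjusted p = 0.055, 0.0618 and 0.0834). Quantile normalization ended those of Il21r and Il4ra (0.063 and 0.0579), as did a fit of only the 2 groups compared (0.0679 and 0.097), and median centring ended that of Il4ra (0.0564).

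Il2ra and Il2rb, the alpha and beta chains of the IL-2 receptor, behaved differently from the other chains. The alpha chain raises the affinity for IL-2, and the beta chain signals for both IL-2 and IL-15. The log2 level of Il2ra was 4.10, 4.11 and 4.37 in immature arrays, 5.29, 5.25 and 5.78 in CCR7+Il12b- arrays and 5.29 and 4.91 in CCR7+Il12b+ arrays. All immature arrays lay below the background mark, and the matured arrays lay near or above it. The measured difference was 1.25 ± 0.16 (SE) in CCR7+Il12b- cells, with group means of 5.44 and 4.19, which gives a rise of at least 1.38-fold over the mark (limma, adjusted p = 0.000261). In CCR7+Il12b+ cells, with a mean of 5.10, it was 0.91 ± 0.18, at least 1.09-fold (limma, adjusted p = 0.00251). Here and below, "at least" compares the mean of the brighter group with the dimmer group, each array of the latter set at the higher of the mark and its own value. Il2ra was the only measured member above the mark whose mean was lower in CCR7+Il12b+ than in CCR7+Il12b- cells, but the difference of -0.34 was not called (95% interval -0.74 to 0.06, limma, adjusted p = 0.376) and the arrays overlapped.

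Il2rb had log2 levels of 4.43, 4.42 and 4.51 in immature arrays, 4.75, 4.92 and 4.75 in CCR7+Il12b- arrays and 4.54 and 4.67 in CCR7+Il12b+ arrays. Every array lay below the background mark, so no fold is given. The difference of 0.35 ± 0.10 (SE) between CCR7+Il12b- and immature cells was called (limma, adjusted p = 0.0288), but the call was lost without any 1 of the 3 immature arrays (adjusted p = 0.0715, 0.107 and 0.0663) or without CCR7+Il12b- replicate 2 (0.113). Quantile normalization (adjusted p = 0.0993) and cyclic loess (0.101) also ended it. The differences of 0.15 between CCR7+Il12b+ and immature cells (95% interval -0.10 to 0.40, limma, adjusted p = 0.341) and of -0.20 between the matured fractions (95% interval -0.45 to 0.05, limma, adjusted p = 0.424) were not called. Il15ra, the chain that presents IL-15, lay above the mark in every group and well above it in the matured cells. The row of Il2rb did not leave the background range in any group. Each was read against the mark only, since the rows have their own probes.

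Counted together, 7 of 7 measured members were called higher in CCR7+Il12b- than in immature cells, where 9.1% of all genes were called higher and 23.6% were called in either direction. In CCR7+Il12b+ cells 6 of 7 were called higher against immature cells, against 14.1% of all genes called higher and 32% called in either direction. Between the matured fractions 5 of 7 were called higher in CCR7+Il12b+ cells, where 2.61% of all genes were called higher and 7.08% in either direction. With a rise of at least 2-fold as well, the counts were 6, 5 and 2 members, against 2.89%, 4.51% and 0.466% of all genes. Rises called at both steps, from immature to CCR7+Il12b- and on to CCR7+Il12b+, were found for 5 members (Il15, Il15ra, Il7r, Il21r and Il4ra) and for 339 genes in all, or 1.7%.

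Array ranges were also compared, without a model. All 7 members were higher in every CCR7+Il12b- array than in any immature array, which 22.1% of all genes were, and 7 of 7 were so in CCR7+Il12b+ arrays, as 33.5% of all genes were. Between the fractions 5 of 7 did not overlap and were higher in CCR7+Il12b+, against 15.3% of all genes. The median log2 difference of the members was 1.71, 2.68 and 0.63 in the 3 comparisons, beside 0.06, 0.09 and 0.02 for all genes tested.

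**Figure D2:**
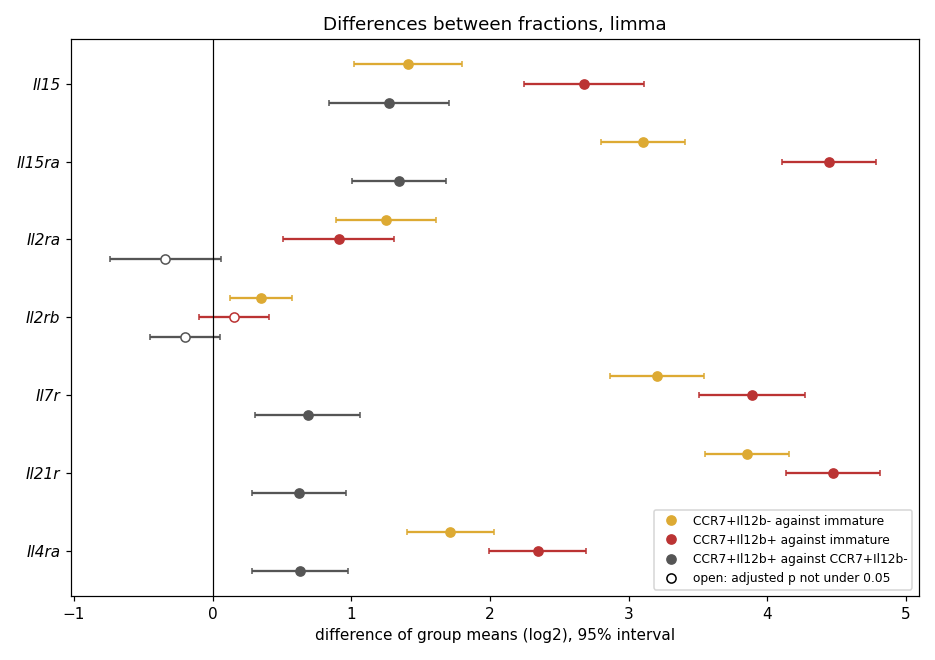
Difference of mean log2 levels of the 7 measured members in the 3 comparisons, with 95% intervals from limma. Il21r and Il15ra moved farthest from immature cells, at 4.47 and 4.45 in CCR7+Il12b+ cells, and Il15ra and Il15 moved farthest between the matured fractions, at 1.35 and 1.27.

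Members also differed between arrays of the same group, by unequal amounts. Between the CCR7+Il12b+ arrays, 6 of 7 members were higher in replicate 1, as 43.1% of all genes were: Il15 by 0.56, Il4ra by 0.49, Il2ra by 0.37, Il15ra by 0.30, Il7r by 0.16 and Il21r by 0.05. Il2rb differed by -0.13. Leaving out CCR7+Il12b- replicate 3, the array nearest to the CCR7+Il12b+ group, kept all 7 members called against immature cells and 3 of 5 between the fractions (Il15, Il15ra and Il21r).

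T cells express Il7r, Il21r and Il2ra, and NK cells express Il2rb and Il21r, so markers of both, and of other spleen cells, were read beside the members. Single markers are named here with their values known. The 10 measured T cell markers had a summed linear level of 432 to 444 in immature, 1051 to 1123 in CCR7+Il12b- and 1365 to 1398 in CCR7+Il12b+ arrays, with 5, 6 and 6 of them above the mark. Icos, which is also known in other cells, rose by 2.72 and 3.36 log2 units (limma, adjusted p = 2.97e-08 and 1.76e-08). Without Icos, a choice made after its values were seen, the sums were 321 to 341, 357 to 390 and 261 to 297. Of the T cell receptor complex genes, Cd3d and Cd3g were below the mark in all 3 groups, as were Trat1 and Themis, whereas Cd3e lay above it at 5.18, 5.55 and 5.40. Cd4, Cd5 and Cd6 were above the mark in every group as well. The 10 NK cell markers summed to 468 to 551, 333 to 441 and 222 to 252, with 3, 4 and 3 above the mark, and Ncr1, Klrb1c, Klre1, Gzma, Eomes and Klri2 were below it throughout. Tbx21 and Prf1 were above it in every group, and Klrd1 had mean levels of 8.21, 7.19 and 4.81.

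The 7 B cell markers summed to 382 to 451, 634 to 826 and 465 to 481, with 5 above the mark in each group and Cd79a and Ebf1 below it in all. Against immature cells 3 of the 7 were called higher in CCR7+Il12b- cells and 1 higher and 2 lower in CCR7+Il12b+ cells, and Ms4a1, which encodes CD20, had mean levels of 6.99, 8.498 and 7.90. The 6 markers of CD11b+ dendritic cells summed to 587 to 918, 2462 to 2704 and 2778 to 2868, with 5, 5 and 4 above the mark and Clec4a4 below it in all. In that list Tmem176a had mean levels of 7.12, 9.96 and 10.32 and Tmem176b of 7.88, 10.12 and 10.33. Those of Cd209a fell, at 7.31, 6.29 and 5.27. Of the 6, 3 were called higher and 1 lower in CCR7+Il12b- against immature cells. The counts were 2 higher and 1 lower in CCR7+Il12b+ against immature cells, and 0 higher and 3 lower between the fractions. The 7 monocyte and macrophage markers summed to 1901 to 2187, 2401 to 3012 and 2316 to 2633, with 5, 6 and 4 above the mark and Mertk below it in all. Among these Spic had mean levels of 7.11, 10.25 and 10.17 and Vcam1 of 6.81, 9.37 and 9.97. Falling means were seen for Lyz2 (10.58, 9.12 and 7.47), Ccr2 (7.09, 5.15 and 4.66) and Csf1r (5.86, 5.55 and 5.29). Of the 7, 3 were called higher and 2 lower in CCR7+Il12b- against immature cells. The counts were 2 higher and 3 lower in CCR7+Il12b+ against immature cells, and 0 higher and 2 lower between the fractions. The 5 plasmacytoid dendritic cell markers summed to 927 to 1152, 621 to 707 and 603 to 606, with 5, 5 and 4 above the mark, and 4 of 5 were called lower in each matured fraction. The 2 measured innate lymphoid cell markers, Gata3 and Zbtb16, summed to 49 to 56, 61 to 77 and 59 to 62. Gata3 lay below the mark in all groups, and Zbtb16 only in immature cells. The part of these other cell types in the results was not tested.

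The rest of the pathway was read from lists of 33 genes, 30 of them measured. Of these, 15 were called higher and 1 lower in CCR7+Il12b- against immature cells. The counts were 15 and 1 in CCR7+Il12b+ against immature cells, and 3 and 1 between the matured fractions. Among all 19938 genes 9.1%, 14.1% and 2.61% were called higher in these comparisons, the background for each list below as well. Called lower were 2892, 3567 and 891 genes. The median log2 difference over the 30 genes was 0.38, 0.33 and 0.05, beside 0.06, 0.09 and 0.02 for all genes.

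The other gamma chain cytokines were at or near background. Il2, Il7, Il9 and Il21 lay below the mark in every group, and Il4 had mean levels of 4.92, 5.18 and 5.15. Of these 5, none was called in CCR7+Il12b- cells and 1, Il7, was called in CCR7+Il12b+ against immature cells, by 0.35 ± 0.11 (SE, limma, adjusted p = 0.0252) with both means below the mark. That call was lost without immature replicate 2 or 3 or without either CCR7+Il12b+ array, where adjusted p reached 0.084 (limma), and after quantile normalization (0.104) or cyclic loess (0.105). Il15 was thus the gamma chain cytokine gene measured clearly above background in these cells.

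Among 4 further receptor chains that bind related ligands, 1 was called against immature cells. Il9r, the IL-9 receptor chain, had log2 levels of 5.36, 5.52 and 5.47 in immature arrays, 6.43, 6.05 and 6.81 in CCR7+Il12b- arrays and 5.60 and 5.79 in CCR7+Il12b+ arrays. Like the means of Il2ra and Il2rb, that of Il9r was highest in CCR7+Il12b- cells, unlike those of Il15ra, Il7r, Il21r and Il4ra. The rise of Il9r by 0.98 ± 0.17 (SE) in CCR7+Il12b- cells was called (limma, adjusted p = 0.00156). Its difference of 0.24 in CCR7+Il12b+ cells was not (limma, adjusted p = 0.361). The difference of -0.74 ± 0.19 between the matured fractions was called (limma, adjusted p = 0.04). That last call was lost in 11 of 21 alternatives, among them leaving out immature replicate 2 or 3, CCR7+Il12b- replicate 1 or 3 or either CCR7+Il12b+ array, where adjusted p reached 0.202 (limma).

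Of the kinases and STAT proteins that carry the signal, 5 were measured, and the others on the list were not analysed here. Called higher in both matured fractions were 4 of 5: Stat5a, Stat5b, Stat6 and Stat3. Stat5a, which transmits IL-2, IL-7 and IL-15 signals, rose by 1.48 ± 0.17 (SE) in CCR7+Il12b- cells (limma, adjusted p = 0.000104) and by 1.94 ± 0.19 in CCR7+Il12b+ cells (limma, adjusted p = 1.34e-05). Stat6, the IL-4 transducer, rose by 0.86 and 0.90, Stat3 by 0.81 and 1.08 and Stat5b by 0.68 and 0.99. None of the 5 was called between the matured fractions.

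Feedback inhibitors of cytokine signalling were called higher for 3 of 4 genes in CCR7+Il12b- cells and for 2 of 4 in CCR7+Il12b+ cells. Socs2, a STAT5-induced inhibitor, had log2 levels of 4.33, 4.15 and 4.76 in immature arrays, 9.86, 9.89 and 9.99 in CCR7+Il12b- arrays and 10.84 and 10.45 in CCR7+Il12b+ arrays. It was below the background mark in immature cells and rose at least 30.6-fold and at least 50.8-fold, with measured differences of 5.50 ± 0.16 (SE) and 6.23 ± 0.18 (limma, adjusted p = 8.3e-09 and 7.16e-09). A dimmer row of Socs2 gave 3.40 and 4.16. The third gene called in CCR7+Il12b- cells, Socs3, differed by 0.37 (limma, adjusted p = 0.0347), but its other row differed by 0.03 and was not called (adjusted p = 0.90 over all rows). Cish, the other classical STAT5-induced inhibitor, rose by 0.65 ± 0.11 in CCR7+Il12b- cells, at least 1.37-fold (limma, adjusted p = 0.00139). The rise of Cish in CCR7+Il12b+ cells, 0.43 ± 0.12 or at least 1.18-fold (limma, adjusted p = 0.0193), was lost without immature replicate 1 or 2 or without CCR7+Il12b+ replicate 2 (adjusted p = 0.0555, 0.0513 and 0.125), and after cyclic loess (0.0717).

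Of the genes listed for Il15 transcription and for shedding of the receptor chain, Irf1, Rela and Adam17 were called higher in both matured fractions and Nfkb1 was not analysed here. Irf1, a transcription factor known to act on the Il15 promoter, had log2 levels of 9.08, 8.80 and 8.74 in immature arrays, 10.47, 10.49 and 10.78 in CCR7+Il12b- arrays and 11.80 and 11.26 in CCR7+Il12b+ arrays. The 3 groups of Irf1 did not overlap. Higher arrays without overlap were found for 22.1%, 33.5% and 15.3% of all genes in the 3 comparisons. A part of Irf1 in the rise of Il15 was not tested. The differences of Irf1 were 1.71 ± 0.16 (SE) and 2.66 ± 0.18 against immature cells (limma, adjusted p = 2.46e-05 and 9.68e-07) and 0.94 ± 0.18 between the fractions (limma, adjusted p = 0.00919). The last was lost without CCR7+Il12b+ replicate 1 (adjusted p = 0.0866). Rela, the NF-kB p65 subunit, rose by 0.70 and 0.81, and Adam17, a membrane protease that sheds cell-surface receptors, by 0.64 and 0.55.

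Known STAT5 and STAT6 targets moved in both directions. Of 9 listed genes, 4 were called higher and 1 lower in CCR7+Il12b- cells, and 5 higher and 1 lower in CCR7+Il12b+ cells. The survival gene Bcl2l1 rose by 1.54 ± 0.16 (SE) and 2.29 ± 0.18 against immature cells (limma, adjusted p = 6.68e-05 and 3.16e-06), while the related survival gene Bcl2 fell by 0.94 and 1.25 (limma, adjusted p = 0.000145 and 1.64e-05). Ccl17, a STAT6-responsive chemokine, rose by 1.38 ± 0.20 in CCR7+Il12b- cells (limma, adjusted p = 0.000591). Its rise of 0.86 ± 0.23 in CCR7+Il12b+ cells (limma, adjusted p = 0.0132) was lost without CCR7+Il12b+ replicate 2 (adjusted p = 0.167). The kinase gene Pim1 rose by 0.77 and 0.98.

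Between the matured fractions the called pathway genes were Irf1, Socs2 and Bcl2l1, which were higher in CCR7+Il12b+ cells, and Il9r, which was lower. The step was 0.73 ± 0.18 (SE) for Socs2 (limma, adjusted p = 0.0326) and 0.75 ± 0.18 for Bcl2l1 (limma, adjusted p = 0.032). The Socs2 call was lost without CCR7+Il12b- replicate 1 or 2 or CCR7+Il12b+ replicate 1, where adjusted p reached 0.217 (limma), and with array weights (0.0947). The Bcl2l1 call was lost without immature replicate 3, CCR7+Il12b- replicate 2 or either CCR7+Il12b+ array, where adjusted p reached 0.202 (limma).

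**Figure D3:**
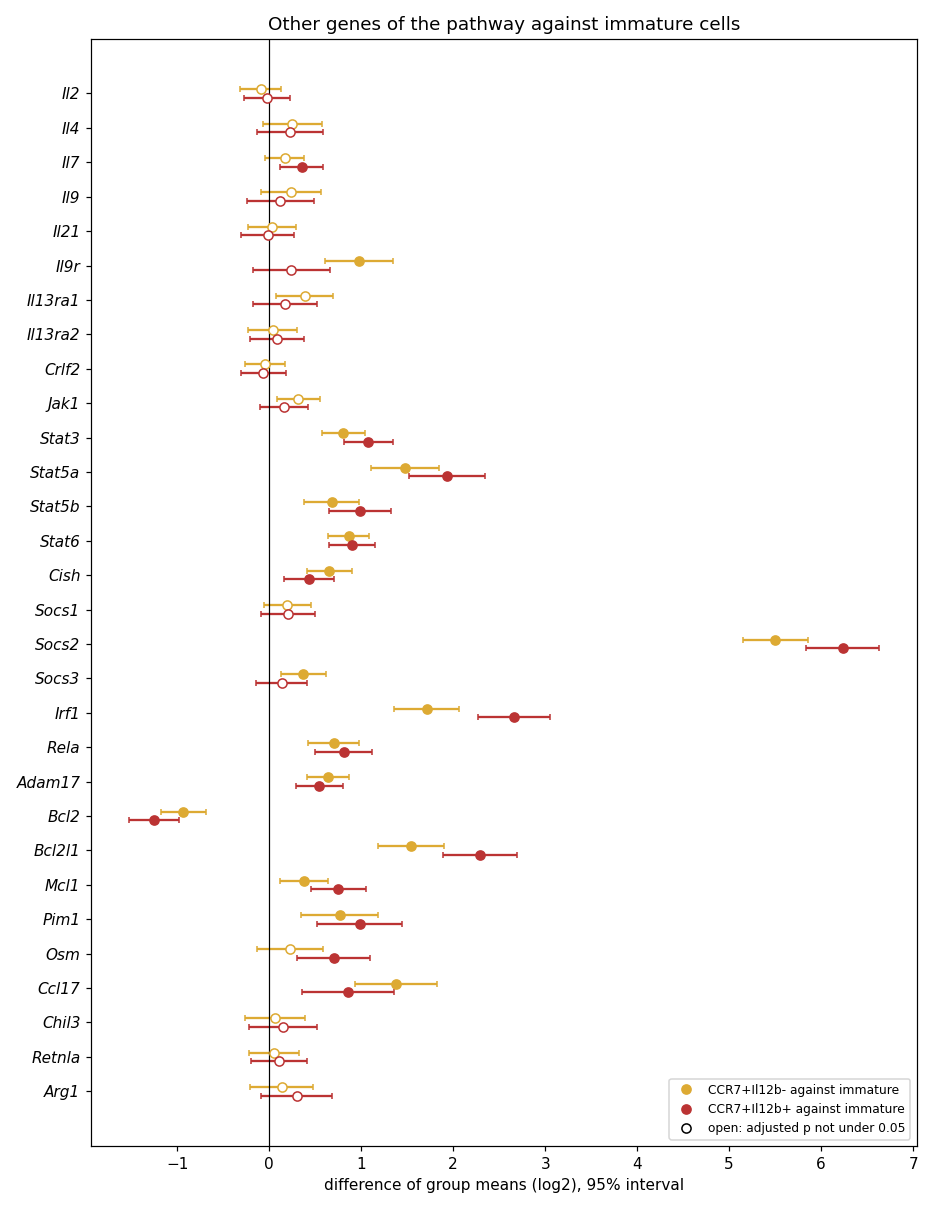
Difference of mean log2 level from immature cells for the 30 measured genes of the pathway lists, in CCR7+Il12b- and CCR7+Il12b+ cells, grouped by role. Socs2 lies far from the rest at 5.50 and 6.23, the kinases and STATs lie to the right of 0, and Bcl2 lies lowest at -0.94 and -1.25.

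In the genome the members lie partly side by side. In the order of protein-coding genes of RefSeq's GRCm38.p6, Il2ra and Il15ra are neighbours on chromosome 2, between Rbm17 and Fbh1, with Pfkfb3 beyond Rbm17. Il4ra and Il21r are neighbours on chromosome 7, between Nsmce1 and Gtf3c1. The genes that flank these pairs mostly did not move with them. On chromosome 2, Fbh1 differed from immature cells by -0.02 in the CCR7+Il12b- fraction and 0.07 in the CCR7+Il12b+ fraction (limma, adjusted p = 0.922 and 0.727). Rbm17, a splicing factor gene, differed by -0.59 ± 0.15 (SE) and -0.12 (limma, adjusted p = 0.0129 and 0.619), and the first of these calls was lost without immature replicate 2 (adjusted p = 0.0594). Pfkfb3, which encodes a glycolytic regulator, rose by 2.80 ± 0.13 and 3.23 ± 0.15 (limma, adjusted p = 1.55e-07 and 6.96e-08). On chromosome 7, Nsmce1 differed by 0.05 and 0.36 (limma, adjusted p = 0.859 and 0.15) and Gtf3c1 by -0.01 and 0.03 (limma, adjusted p = 0.975 and 0.867). The 0.36 of Nsmce1 passed the threshold after quantile normalization (adjusted p = 0.0152) and cyclic loess (0.0232).

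**Figure D4:**
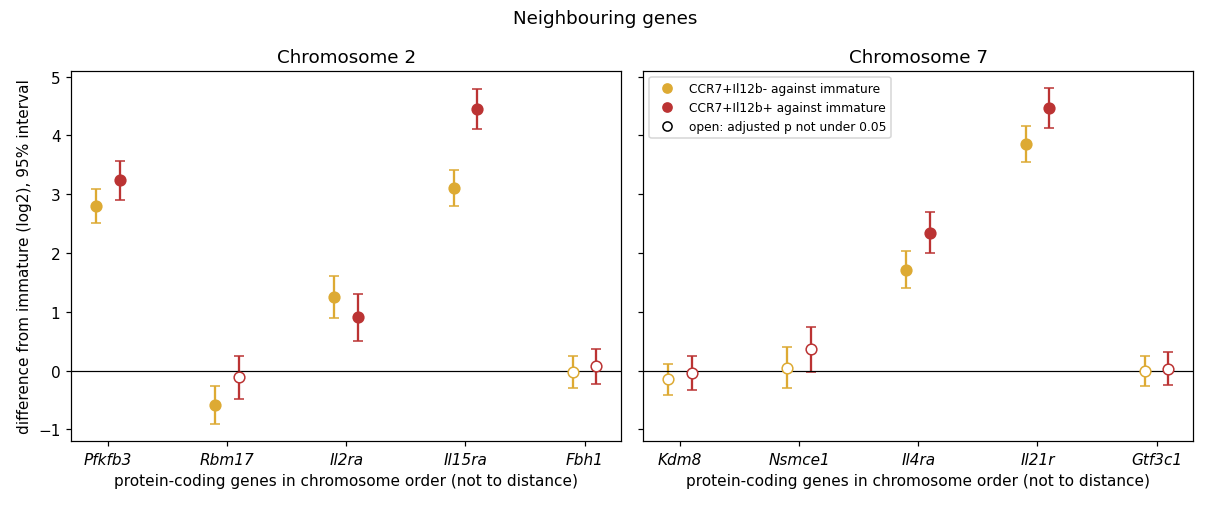
Difference of mean log2 level from immature cells for the member pairs on chromosomes 2 and 7 and the genes beside them, drawn in gene order and not to distance, with 95% intervals. Il2ra and Il15ra stand beside Fbh1 at -0.02 and 0.07, and Il4ra and Il21r stand between Nsmce1 and Gtf3c1, whose largest difference is 0.36. On the other side of Il2ra, Pfkfb3 lies far higher than in immature cells in both matured fractions. Rbm17 lies lower in CCR7+Il12b- cells, and its difference in CCR7+Il12b+ cells was not called.

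Sequence upstream of the starts of these genes was read for 3 motifs, since several members rose together. RefSeq promoters of GRCm38.p6 were found for 6 of the 8 members in 7 windows, Il15ra having 2 starts, and those of Il15 and Il2rb were not used here. The NF-kB motif was GGG and CC with any 5 bases between, the STAT site GAS was TTC and GAA with any 3 bases between, and the interferon response element ISRE was GAAA and GAAA with any 2 bases between. Both strands of the 250 bases before each start were searched. The 4 windows that held a match are printed 5′ to 3′ on the strand of the gene, with the match in capitals, because they show where in the upstream sequence of called members such letters occur. They are Il2ra at chr2:11642542-11642791 (plus strand), Il15ra from its second start at chr2:11705462-11705711 (plus strand), Il21r at chr7:125603179-125603428 (plus strand) and Il7r at chr15:9529877-9530126 (minus strand).
Il2ra: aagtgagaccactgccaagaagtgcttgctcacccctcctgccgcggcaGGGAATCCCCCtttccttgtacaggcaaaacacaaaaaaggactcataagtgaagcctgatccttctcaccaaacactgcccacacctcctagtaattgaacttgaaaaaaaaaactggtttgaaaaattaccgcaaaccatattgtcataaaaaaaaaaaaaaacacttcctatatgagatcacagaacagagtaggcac
Il15ra: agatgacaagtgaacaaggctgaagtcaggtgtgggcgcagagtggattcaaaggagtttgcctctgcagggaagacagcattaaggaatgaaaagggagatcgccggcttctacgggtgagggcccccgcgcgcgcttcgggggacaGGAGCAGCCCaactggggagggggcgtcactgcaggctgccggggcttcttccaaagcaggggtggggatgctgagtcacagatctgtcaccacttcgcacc
Il21r: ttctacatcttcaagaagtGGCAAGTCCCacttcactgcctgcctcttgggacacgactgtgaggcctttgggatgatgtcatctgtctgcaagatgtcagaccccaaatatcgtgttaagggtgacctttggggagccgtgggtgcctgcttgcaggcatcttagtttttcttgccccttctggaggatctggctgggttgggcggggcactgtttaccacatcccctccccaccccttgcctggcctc
Il7r: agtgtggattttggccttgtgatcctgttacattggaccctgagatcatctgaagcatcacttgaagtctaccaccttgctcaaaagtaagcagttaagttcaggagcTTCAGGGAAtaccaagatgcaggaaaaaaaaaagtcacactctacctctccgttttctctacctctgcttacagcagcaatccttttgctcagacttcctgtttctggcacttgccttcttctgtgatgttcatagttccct
The NF-kB letters occurred at -201 and -200 from the start of Il2ra, where 2 matches overlap, at -102 from the second start of Il15ra and at -231 from that of Il21r. The GAS letters occurred at -142 in Il7r. NF-kB letters were thus in 3 of 7 windows, against 45.8% of all 32851 windows of this length, GAS letters in 1 of 7, against 7.02%, and ISRE letters in 0 of 7, against 2.98%. The windows of Il4ra, of Il2rg and of the first start of Il15ra held none of the 3 motifs. A part of these motifs in the changes of the members was not tested.

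The genes whose pattern over the 8 arrays was most like each member were taken by Pearson correlation among 4292 genes with a range of at least 1 log2 unit. The arrays fall into 3 sorted fractions, so high values mostly repeat the steps between fractions, and they are given as a description. Il15 was closest to Mdm4 (r = 0.998), a regulator of p53, and then to Hsf2 (0.992) and Tbk1 (0.991), the latter a kinase of innate sensing pathways. Il7r was closest to Tmem39a (r = 0.999) and then to Fnbp1l (0.999) and Ccl22 (0.999), the latter a chemokine of mature dendritic cells. Il15ra was closest to Inf2 (r = 0.999), Il21r to Spred1 (0.999) and Il4ra to Slc49a4 (0.998). Il2ra was closest to Arap2 (r = 0.992) and then to Helz2 (0.990), and Il2rb to Oasl2 (0.964).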

How the data were processed

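Each of 8 sorted samples was hybridised to its own array. According to the protocols in the labels, either 3 or 20 ng of RNA went through 2 rounds of amplification before biotin labelling, without saying which sample had which input. The authors deposited log2 values, for which the submitters' processing notes name RMA and oligo. The versions, and which build was used, were not stated there. RMA normalises between arrays, so a change in total RNA per cell is not visible, and array medians ran from 5.25 to 5.46. Names came from the platform annotation: 21789 of 35556 rows had exactly 1 symbol, and the row with the highest mean stood for each of the 999 genes with several.

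Group means were fitted over all 8 arrays at once with limma 3.58.1 under R 4.3.3 (lmFit, eBayes), two-sided, with Benjamini-Hochberg adjustment over 19938 genes and no filter on dim genes. The procedure was tested on simulated data. Nothing in the labels ties replicates to separate mice. The p-values therefore measure only the spread among these samples, which may be technical, and precision is limited by the number of arrays. Replicate numbers recur across groups, but nothing in the labels pairs the samples. The members, gene lists and alternatives were chosen with earlier results of these data known. All members are named, at most 4 called genes of each pathway list and comparison with the largest change, genes beside a member, and up to 3 genes most like each.

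Alternatives were 3 scalings, 2 filters on dim genes, 3 rules for the row of a gene, 2 replicate blocks, array weights, trended robust moderation, a fit of only the 2 groups compared, a 2-fold rule and leaving out each array.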

Additional observations from a re-analysis of the deposited data

How the results depend on the processing

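Over the 21 differences of the members (7 genes, 3 comparisons) the alternatives gave 432 values, of which 397 kept their direction and side of the threshold, 34 lost a call and 1 changed sign: Il2rb in CCR7+Il12b+ against immature cells, -0.0079 after cyclic loess. Between the matured fractions, members called fell from 5 to 3 after quantile normalization and with only the 2 groups compared, and to 2 with array weights, and they ranged from 2 to 5 when 1 array was left out. Genes called there ranged from 712 to 1771 over these omissions; the lowest count was without CCR7+Il12b+ replicate 1. With a 2-fold rule added, 1217, 2535 and 397 genes were called in the 3 comparisons. Neighbouring genes that were not called changed sign: Fbh1 in CCR7+Il12b- cells after quantile normalization (0.1383) and cyclic loess (0.1076), and -0.0933 to 0.0378 with 1 array left out; Nsmce1 in CCR7+Il12b- cells after median centring (-0.007) and array weights (-0.0026), and -0.1015 to 0.1260 with 1 array left out. Gtf3c1 in CCR7+Il12b- cells did so after quantile normalization (0.1479), cyclic loess (0.1158) and array weights (0.0726), with -0.0945 to 0.0878 when 1 array was left out, and in CCR7+Il12b+ cells after median centring (-0.0061). Rbm17 in CCR7+Il12b+ cells did so after quantile normalization (0.0457) and cyclic loess (0.0536), with -0.2875 to 0.0527 when 1 array was left out, and Fbh1 in CCR7+Il12b+ cells ranged from -0.0952 to 0.2358. The causes were not tested.

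Same-numbered samples did not deviate together in all pairs (correlations from -0.169 to 0.216). With the replicate number as a fixed block, 6, 6 and 4 members and 4318, 5767 and 1153 genes were called in the 3 comparisons, and as a random block 7, 6 and 4 members. The fixed block ended the calls of Il2rb in CCR7+Il12b- against immature cells (limma, adjusted p = 0.0536), Il7 in CCR7+Il12b+ against immature cells (0.0801) and, between the fractions, Il4ra (0.0951), Bcl2l1 (0.0576) and Il9r (0.0958), and the random block that of Il7r between the fractions (0.0501). Il2rb was not tested among genes above the mark, nor Il2ra and Il2rb among genes above the median. Rows near the background mark limit what Il2ra and Il2rb can show.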
